A study of Saccharomyces cerevisiae with 12 samples.

Results

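The genes described here encode the proteins of the cytosolic 60S ribosomal subunit of the budding yeast Saccharomyces cerevisiae. They were chosen by name: RPL followed by a number, without the mitochondrial MRPL genes, or RPP0, RPP1A, RPP1B, RPP2A and RPP2B. The annotation holds 81 such names, and the table of 6212 rows has a row for 78 of them. RPL36B, RPL41B and RPL43B were not analysed here, the row of RPL38 is empty, and 77 genes therefore carried at least 1 value. Among the 78 rows, 11 are single-copy genes and 64 are both members of 32 pairs of A and B paralogues.

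The study compared treated with control RNA of the same strain on 12 two-colour arrays. In the alkaline pH experiments, cells of strain DBY4741 in 50 ml of YPD at 28 °C received 16 mM KOH (pH 8.0) or 16 mM KCl (about pH 5.5) for 10 min, with 4 arrays for the wild type and 4 for the snf1 mutant, in which KanMX replaces SNF1. The genotype field of snf1 alkaline pH replicate 1 reads snf11::KanMX while its title reads snf1. In the low glucose experiments, cells of strain DBY746 were spun down, washed and put into fresh YP medium with 0.05% or 2% glucose for 15 min, with 2 arrays for the wild type and 2 for snf1. Strain, handling and time thus differ between the treatments and cannot be told apart from them. The labels do not say whether arrays of a group come from separate cultures, so the p-values measure the spread between arrays, which may be technical.

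The large ribosomal subunit forms peptide bonds, carries the tunnel through which the new protein leaves, and holds a stalk that recruits and activates translation factors. Its proteins are made in near-equal numbers and joined to ribosomal RNA in the nucleolus and nucleus, with a few added in the cytoplasm. Most of the genes exist in yeast as a pair of paralogues, left by an ancient genome duplication, and many pairs encode identical or nearly identical proteins. Ribosomal protein genes are among the most transcribed of a growing yeast cell and are controlled together through TORC1 and protein kinase A, by way of the factors Rap1, Fhl1, Ifh1 and Sfp1. Snf1 is the yeast AMP-activated protein kinase, which is active when glucose is scarce.

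Each value is the log2 of treated over control on an array, so it is a change and says nothing of how abundant a transcript is. The base of the logarithm is taken as 2 and the direction is likely but not stated in the sources used here. Means are given ± SD over the arrays of a group, 4 at alkaline pH and 2 at low glucose unless fewer are named, and differences between groups with limma's SE. The p-values come from limma and were adjusted by the Benjamini-Hochberg method over all genes tested, and a gene is called lower or higher under 0.05. Equal amounts of total RNA were labelled and the arrays appear centred, so a change in the total mRNA per cell cannot be told apart from these ratios.

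The arrays held values for 4056 to 5597 genes and for 70 to 77 of the 60S genes. Arrays of a group correlated across all genes with Pearson coefficients of 0.68 to 0.95 and across the 60S genes with 0.53 to 0.92. The median of the 60S genes was below 0 on each of the 12 arrays, from -1.26 on wild type alkaline pH replicate 1 to -0.52 on wild type low glucose replicate 1. Pooled over the arrays of a group, it was lower where the treated RNA carried Cy3 than where it carried Cy5: -1.08 against -0.76 in the wild type and -0.92 against -0.78 in snf1 at alkaline pH, and -0.68 against -0.52 and -0.85 against -0.60 at low glucose. The single arrays of snf1 at alkaline pH did not all follow this order, with -0.86 on replicate 3 (Cy3) and -0.92 on replicate 4 (Cy5). Each group holds both orientations equally and the fit has a dye term. The mutant compares snf1 RNA with snf1 RNA, so the ratio of SNF1 itself does not check the deletion; it had a value on 1 wild type array (0.29) and 1 snf1 array (0.16) at alkaline pH.

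**Figure D1:**
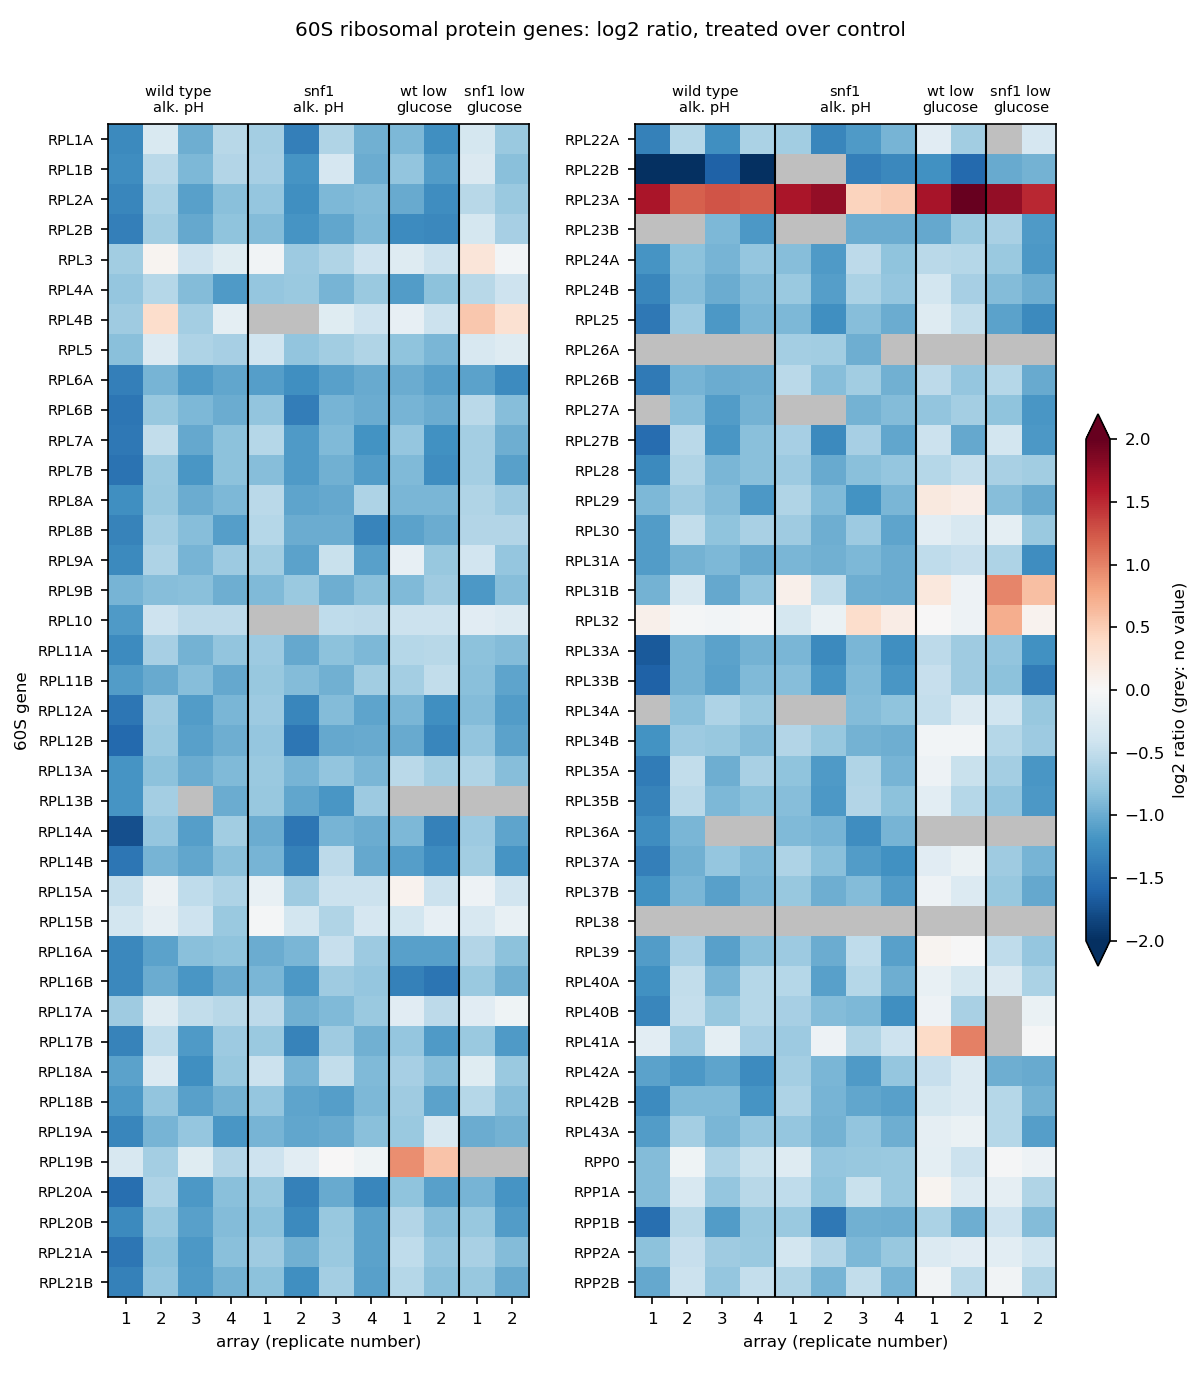
Heat map of the log2 ratio (treated over control) of the 78 60S genes in the order of their names on the 12 arrays, with 1 column per array, the 4 groups parted by black lines and grey for no value. Nearly all cells are blue (lower after treatment), RPL23A is red on all 12 arrays, and most genes from RPL29 to RPL43A are paler in wild type at low glucose than in the other 3 groups.

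In wild type cells at alkaline pH the 60S genes fell together. Of 74 genes tested, 71 were lower and 1 was higher, where 30% of all 4979 genes tested were lower and 25.6% higher. Their median was -0.95, a 1.93-fold lower ratio, against -0.05 over all genes. The quartiles of the 60S genes lay at -1.03 and -0.78, so most members fell by a similar amount.

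RPL22B, which encodes one of a pair of diverged Rpl22 paralogues, fell most. Its values were -2.094, -1.998, -1.62 and -2.13 on the 4 arrays, with a mean of -1.96 ± 0.23, a 3.89-fold lower ratio (adjusted p = 6.98e-07). It lies apart from the rest: the next genes were RPL33A (-1.16 ± 0.36), RPL33B (-1.14 ± 0.33), RPL42A (-1.13 ± 0.09) and RPL6A (-1.12 ± 0.19). At the other end RPL15A and RPL15B fell by 0.43 each, and RPL3, whose protein reaches the peptidyl transferase centre, fell by 0.32 (SD 0.31, adjusted p = 0.0149). RPL3 was not uniform, with values of -0.69, 0.06, -0.42 and -0.25.

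A pair of genes did not pass the test in wild type cells at alkaline pH. RPL4B, which encodes a protein with a long loop in the wall of the exit tunnel, had values of -0.72, 0.35, -0.68 and -0.20 (adjusted p = 0.0801). RPL32 had values of 0.10, -0.04, -0.06 and -0.02, which are close to 0 on every array. RPL23A, whose protein lies at the interface with the 40S subunit, was the only 60S gene called higher, with values of 1.63, 1.20, 1.26 and 1.22 and a mean of 1.33 ± 0.20 (adjusted p = 0.000241). RPL23B was measured on 2 of these arrays, at -0.90 and -1.15, and was not tested.

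The snf1 mutant at alkaline pH gave nearly the same picture. Of 71 genes tested, 68 were lower and 1 was higher, against 26.2% and 21.7% of 4591 genes, with a median of -0.87 (1.83-fold lower) against -0.04 over all genes. The lowest were RPL20A (-1.11 ± 0.28), RPL6A (-1.10 ± 0.09), RPL14A (-1.09 ± 0.24), RPL33A (-1.08 ± 0.19) and RPL12B (-1.06 ± 0.28). RPL22B had values on 2 arrays, -1.37 and -1.30, and was not tested. Near the upper end, RPL15A was at -0.145, -0.712, -0.433 and -0.424 and RPL15B at -0.041, -0.37, -0.607 and -0.339. Both were called lower, and the calls were lost in 1 and 6 of 21 alternatives.

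Of the members tested in snf1, 2 were not called. RPL19B, which was called lower in the wild type, had values of -0.42, -0.21, 0.00 and -0.08 (adjusted p = 0.212), and RPL32 had -0.35, -0.14, 0.35 and 0.16, which straddle 0. RPL23A was again the gene called higher, at 1.64, 1.76, 0.45 and 0.51 (mean 1.09 ± 0.71, adjusted p = 0.00122). Its values split into the arrays of replicates 1 and 2, near 1.7, and those of replicates 3 and 4, near 0.5, a wider spread than on the wild type arrays.

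The genotypes were then set against each other at alkaline pH. None of 69 genes tested was called in either direction, where 0.753% of 4380 genes were lower in snf1 and 0.411% higher, and none had an unadjusted p under 0.05 by limma, as 697 of the 4380 had. The differences, snf1 minus wild type, ran from -0.27 to 0.31 with a median of 0.04, against a median of 0.00 over all genes. That no difference passed the test does not show that the genotypes were alike.

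RPL19B, RPL23A and RPL32, which lay at or near the upper end of the 60S genes in several groups, are the 3 members whose systematic names begin with YBL (YBL027W, YBL087C and YBL092W). Of the genes adjacent to them in the annotation, 4 had values, and none encodes a protein of the 60S subunit. YBL028C, TEL1 and ROX3 all lie on the same side, as the genes before RPL19B, RPL23A and RPL32 in the annotation. They had means of -0.91, -1.16 and -0.75 in wild type at alkaline pH. LSM2, the gene after RPL19B, had -0.24 and was not called, and the genes after RPL23A and RPL32 had no value. Whether the probes of these rows carry the genes their names give was not tested.

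In wild type cells at low glucose the values were spread more widely, with quartiles at -0.94 and -0.29. Of 74 genes tested, 49 were lower, 3 were higher and 22 were not called, against 31.5% lower and 33.7% higher among 5225 genes. The median was -0.56 (1.47-fold lower) against 0.05 over all genes. With the arrays scaled to one spread the count of lower genes was 24 and the median -0.35, and without replicate 1 the count was 31, with the remaining array assumed to vary like the other groups.

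The lowest gene was RPL16B, which encodes a protein of the subunit's solvent side, with values of -1.35 and -1.46 (mean -1.40 ± 0.08, adjusted p = 2.61e-06). RPL22B followed at -1.38 ± 0.25, then RPL2B, of the peptidyl transferase region, at -1.27 ± 0.02, RPL14B at -1.18 ± 0.10 and RPL12B at -1.16 ± 0.22. The genes that rose were 3: RPL23A by 1.96 ± 0.43 (1.65 and 2.26), RPL19B by 0.75 ± 0.26 (0.93 and 0.56), and RPL41A, which encodes a very short peptide at the bridge between the subunits, by 0.70 ± 0.44 (0.39 and 1.02). The call of RPL41A was lost without replicate 2 or with arrays scaled to one spread, and that of RPL19B without replicate 1. RPL31B, also among the highest members, was at 0.21 and -0.10 and was not called.

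Many genes that had fallen at alkaline pH lay near 0 in wild type at low glucose. RPL29 had values of 0.20 and 0.13, RPL39 0.06 and -0.01, and RPL34B -0.06 and -0.06. RPL37A had -0.22 and -0.13, RPL37B -0.10 and -0.27, and RPL43A -0.17 and -0.13. None of these 6 genes was called, while each of them had fallen by 0.87 to 1.03 in the wild type at alkaline pH.

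**Figure D2:**
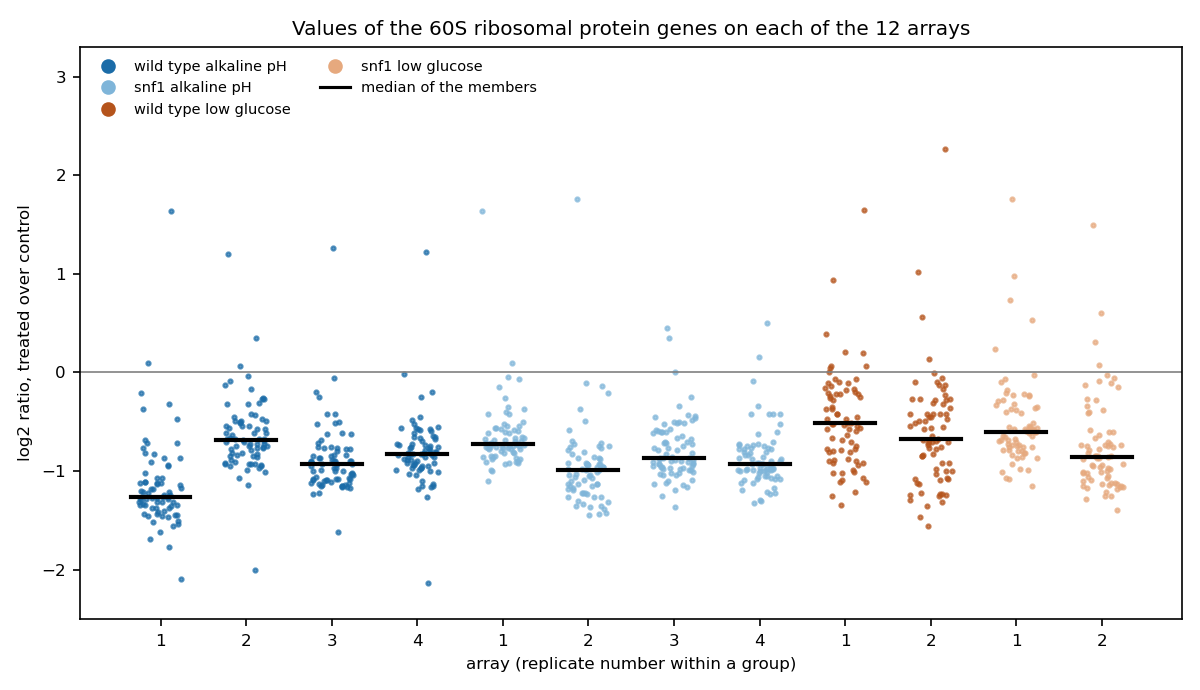
Log2 ratio of each 60S gene (points) on each of the 12 arrays, with the median as a black bar and the groups in colour. The medians run from -1.26 to -0.52, and the single point far above the others on most arrays is RPL23A.

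The same test was made in snf1 cells at low glucose. Of 70 genes tested, 57 were lower, 2 were higher and 11 were not called, against 16.9% and 28.9% of 3703 genes, with a median of -0.76 (1.69-fold lower) against 0.12 over all genes. The count of lower genes was 35 without replicate 2, and 34 when consecutive arrays were averaged.

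RPL25, whose protein is the docking site for factors at the tunnel exit, fell most, with values of -1.08 and -1.28 (mean -1.18 ± 0.14, adjusted p = 7e-05). RPL6A (-1.16 ± 0.13), RPL33B (-1.11 ± 0.41), RPL20A (-1.06 ± 0.18) and RPL9B (-1.15 and -0.85) came next. RPL23A was higher at 1.763 and 1.5 (mean 1.63 ± 0.19), and so was RPL31B at 0.98 and 0.60 (mean 0.79 ± 0.27, adjusted p = 0.0115). RPL4B (0.54 and 0.31), RPL32 (0.73 and 0.07) and RPL3 (0.24 and -0.05) did not pass the test. The call of RPL31B was lost when either array was left out, and that of RPL23A without replicate 1.

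The genotypes differed at low glucose for 10 of 70 genes, 7 lower and 3 higher in snf1. That is a share close to or under the background, since 13% of 3651 genes were lower and 27.6% higher in snf1. The median difference was -0.08 over the 60S genes and 0.18 over all genes. The count depends on single arrays: it was 4 without wild type replicate 1, 2 without wild type replicate 2, 6 without snf1 replicate 1 and 3 without snf1 replicate 2. It was 18 when the low glucose arrays were fitted alone, and 0 when consecutive arrays were averaged.

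RPL29, a small non-essential protein of the subunit, differed most. It was at 0.20 and 0.13 in the wild type and at -0.86 and -1.01 in snf1, a difference of -1.10 ± 0.21 (SE, adjusted p = 0.00161), and lost its call in 1 of 21 alternatives. RPL25 was at -0.25 and -0.49 in the wild type and at -1.08 and -1.28 in snf1, a difference of -0.81 ± 0.20 (adjusted p = 0.00718). For both genes the arrays of the genotypes lie well apart, and these are the arrays that gave the calls.

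The other genes lower in snf1 were RPL37B (-0.70), RPL43A (-0.68), RPL39 (-0.67), RPL42A (-0.62) and RPL34B (-0.59). In the opposite direction RPL2B was at -1.26 and -1.29 in the wild type and at -0.36 and -0.66 in snf1, a difference of 0.76 ± 0.18 (adjusted p = 0.00637). RPL5, the main protein partner of the 5S ribosomal RNA, differed by 0.57 ± 0.19 and RPL16B by 0.55 ± 0.18. The difference of RPL16B was -0.01, without a call, when arrays were scaled to one spread. RPL5, RPL16B, RPL34B and RPL39 each lost their call when any 1 of the 4 low glucose arrays was left out.

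**Figure D3:**
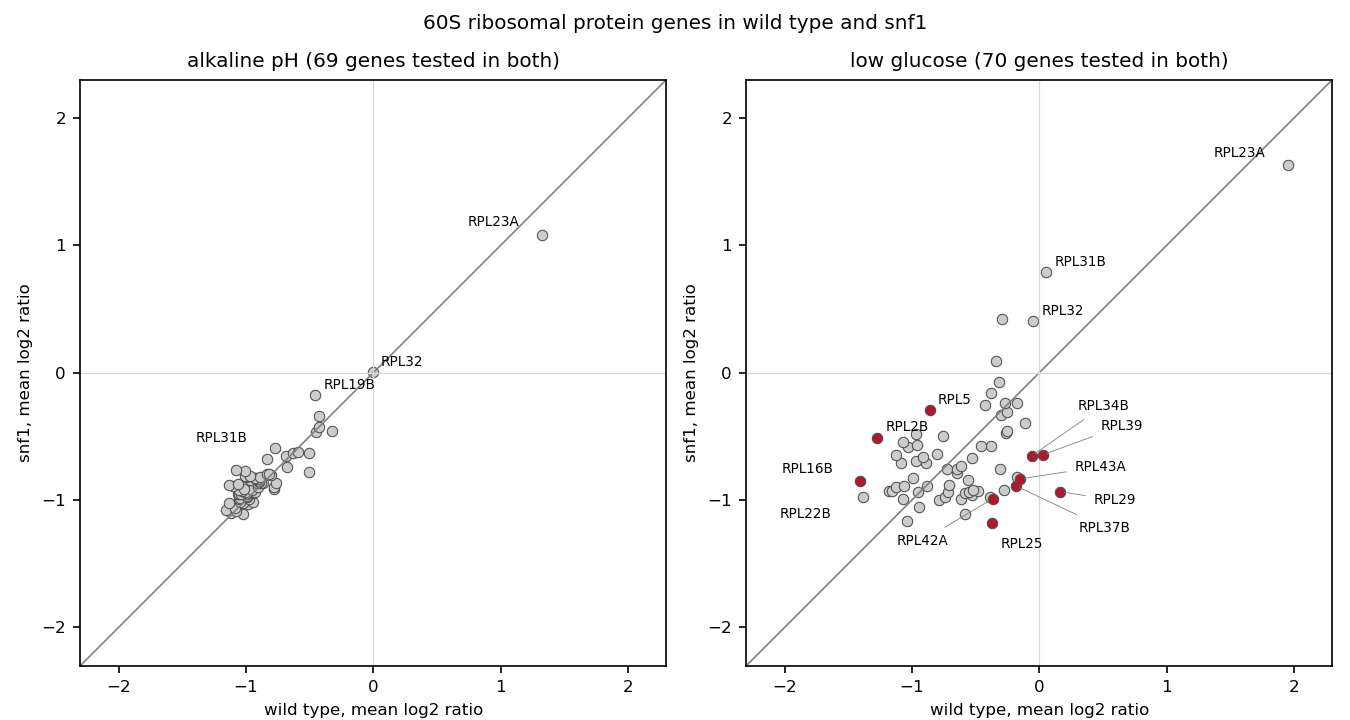
Mean log2 ratio in the wild type (horizontal axis) and in snf1 (vertical axis) at alkaline pH (left, 69 genes) and low glucose (right, 70 genes), with the line of equal values and, in red, genes whose genotype difference was called. At alkaline pH the points follow the line, and at low glucose the cloud spreads to both sides of it, with RPL29 and RPL25 below and RPL2B and RPL5 above.

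The treatments were also compared within a genotype, which sets the low glucose arrays of DBY746 against the alkaline pH arrays of DBY4741. In the wild type, 22 of 73 genes were higher at low glucose and none was lower, against 24.3% higher and 20.9% lower of 4825 genes, with a median difference of 0.36 against 0.14 over all genes. By limma 30 of the 73 had an unadjusted p under 0.05, as had 2596 of the 4825, a larger share. The largest differences were those of RPL19B (1.20 ± 0.19), RPL41A (1.15 ± 0.19), RPL29 (1.07 ± 0.18) and RPL39 (0.96 ± 0.20), followed by RPL37B (0.84), RPL37A (0.83), RPL34B (0.83) and RPL31B (0.83).

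The count of 22 fell to 3 when consecutive arrays were averaged, to 12 with each array centred on its median and to 12 with consecutive array pairs as a random block. It was 11 without low glucose replicate 1, 5 without low glucose replicate 2, 12 without alkaline pH replicate 1 and 11 without alkaline pH replicate 4. In snf1 the same comparison called 3 of 64 genes higher and none lower, against 13.8% and 3.34% of 3290 genes, with a median of 0.13 against 0.14. These were RPL31B (1.38 ± 0.27), RPL17A (0.62 ± 0.16) and RPL3 (0.55 ± 0.17), and RPL3 lost its call in 15 of 20 alternatives. The count was 0 when consecutive arrays were averaged, 0 without either low glucose array, 1 without alkaline pH replicate 2 and 6 without alkaline pH replicate 3.

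The members were next taken by their place and role in the subunit. The P stalk, the flexible arm that recruits translation factors, is built of RPP0, RPP1A, RPP1B, RPP2A and RPP2B on a base that includes Rpl12. All 7 of its genes were lower at alkaline pH in both genotypes, 3 were lower in the wild type and 4 in snf1 at low glucose, and none was higher. The shares of all genes lower in these groups were 30%, 26.2%, 31.5% and 16.9%, so 3 of 7 in the wild type at low glucose is near the background. The medians were -0.68, -0.74, -0.31 and -0.39 in wild type and snf1 at alkaline pH and in wild type and snf1 at low glucose.

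Within the stalk the genes ranged widely. RPL12A and RPL12B, of the base, lay between -1.16 and -0.93 in the 4 groups. RPP0, which encodes the scaffold of the stalk, fell by 0.50 ± 0.33 in the wild type and by 0.63 ± 0.25 in snf1 at alkaline pH, and was at -0.20 and -0.43 in the wild type and -0.03 and -0.11 in snf1 at low glucose, not called in either. Among the acidic P proteins, RPP1B fell in all 4 groups (-0.99 ± 0.42, -1.03 ± 0.29, -0.81 ± 0.24 and -0.64 ± 0.32). RPP2A and RPP2B had means between -0.34 and -0.25 at low glucose and were not called there.

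RPL5 and the RPL11 pair encode the proteins that bring the 5S ribosomal RNA into the subunit. RPL11A and RPL11B fell in all 4 groups, by 0.92 and 1.00 in the wild type and 0.87 and 0.82 in snf1 at alkaline pH, and by 0.56 and 0.59 in the wild type and 0.84 and 0.95 in snf1 at low glucose. RPL5 ran the other way between the genotypes at low glucose, at -0.80 and -0.92 in the wild type and -0.32 and -0.27 in snf1, where it was not called (adjusted p = 0.0993).

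The genes of proteins around the exit of the tunnel are RPL17A and B, RPL19A and B, RPL25, RPL26A and B, RPL31A and B, RPL35A and B, RPL38 and RPL39. At alkaline pH 11 of 11 tested were lower in the wild type and 11 of 12 in snf1. At low glucose 6 of 11 were lower and 1 higher in the wild type, with a median of -0.38, and 8 of 10 were lower and 1 higher in snf1, with a median of -0.93. Of all genes 30% and 26.2% were lower at alkaline pH, and at low glucose 31.5% were lower and 33.7% higher in the wild type and 16.9% and 28.9% in snf1. RPL35A, for example, was at -0.09 and -0.45 in the wild type and at -0.68 and -1.17 in snf1, and only the fall in snf1 was called, while the difference of the genotypes was not. RPL26A had values on 3 snf1 arrays at alkaline pH alone, -0.69, -0.69 and -0.98.

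RPL40A and RPL40B encode a ribosomal protein fused to ubiquitin, which is cut off after translation. Both fell at alkaline pH, by 0.80 and 0.78 in the wild type and 0.80 and 0.92 in snf1. At low glucose RPL40A was at -0.14 and -0.36 in the wild type, where it was not called, and at -0.28 and -0.64 in snf1, where it fell (adjusted p = 0.0406).

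Of the single-copy genes tested, 9 of 10 were lower in the wild type and 8 of 9 in snf1 at alkaline pH, and 5 of 10 in each genotype at low glucose, beside 30%, 26.2%, 31.5% and 16.9% of all genes. RPL10, whose protein joins the subunit last, in the cytoplasm, fell by 0.65 ± 0.32 in the wild type at alkaline pH, with replicate 1 at -1.13 and the others between -0.52 and -0.42. RPL28, known for the mutations that give resistance to cycloheximide, fell in all 4 groups, by 0.91, 0.83, 0.53 and 0.67. RPL30, whose protein represses the splicing of its own transcript, fell by 0.76 and 0.87 at alkaline pH and by 0.47 in snf1 at low glucose, and was at -0.21 and -0.32 in the wild type at low glucose without a call.

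The A and B paralogues were compared within each array, so that whatever both share on an array cancels. Tests were adjusted over all pairs of A and B names in the table. Near-identical paralogues may share signal on a spot, which would make differences smaller and was not tested. The RPL19 and RPL23 pairs each hold a YBL row. Whether the probes of these rows carry the genes their names give was not tested. Most pairs moved alike: the mean difference was within 0.25 for 25 of 30 pairs in the wild type and 23 of 27 in snf1 at alkaline pH, and for 20 of 30 and 21 of 27 at low glucose. The medians of the absolute difference were 0.05, 0.08, 0.12 and 0.12. RPL33A and RPL33B, for example, were at -1.16 and -1.14 in wild type at alkaline pH, and RPL21A and RPL21B at -1.06 and -1.05.

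In the wild type at alkaline pH 5 of 30 pairs differed, where 8 of 48 pairs (16.7%) did in the whole table. The pairs of the whole table include the 60S pairs, here and below, so these shares are not a separate background. The RPL22 pair parted most. RPL22A minus RPL22B was 0.74, 1.43, 0.40 and 1.49, a mean of 1.02 ± 0.53 (adjusted p = 0.000455), with the larger values on the arrays where the treated RNA carried Cy5. RPL22A itself fell by 0.95 ± 0.40, close to the median of the 60S genes, and RPL22B is the one that lay apart.

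The other pairs called in that group were RPL19 (-0.59 ± 0.30), RPL4 (-0.52 ± 0.47), RPL17 (0.42 ± 0.24) and RPP1 (0.36 ± 0.20). RPL4A minus RPL4B was -0.05 and -0.19 on the arrays with treated RNA in Cy3 and -0.92 and -0.93 on those in Cy5, and the call was lost without the dye term. RPP1A minus RPP1B was above 0 on each array, at 0.64, 0.24, 0.34 and 0.20. Without replicate 4 the count of pairs was 3.

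In snf1 at alkaline pH 2 of 27 pairs differed, against 7 of 46 (15.2%) in the whole table. RPL19A minus RPL19B was -0.51, -0.83, -1.02 and -0.75, below 0 on each array (mean -0.78 ± 0.21, adjusted p = 0.00266). RPP1A minus RPP1B was 0.25, 0.62, 0.51 and 0.23, above 0 on each array (mean 0.40 ± 0.19, adjusted p = 0.00195). The RPL22 pair had 2 arrays, at 0.24 and 0.37, and was not tested. Without replicate 3 the count of pairs was 4.

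In the wild type at low glucose 6 of 30 pairs differed, against 10 of 48 (20.8%) in the whole table. RPL23A minus RPL23B was 2.666 and 3.003 (mean 2.83 ± 0.24, adjusted p = 3.29e-06), since RPL23A rose and RPL23B fell by 0.88 ± 0.20. RPL19 differed by -1.28 ± 0.57, RPL22 by 0.92 ± 0.09, RPP1 by 0.70 ± 0.01, RPL4 by -0.68 ± 0.39 and RPL17 by 0.58 ± 0.06. RPP1A was at 0.05 and -0.27, not called while RPP1B fell by 0.81. The count was 3 without replicate 2 or with arrays scaled to one spread, and 11 when the low glucose arrays were fitted alone.

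In snf1 at low glucose 5 of 27 pairs differed, against 12.5% of 40. RPL23A minus RPL23B was 2.42 and 2.63 (mean 2.52 ± 0.15). RPL31A minus RPL31B was -1.59 and -1.85 (mean -1.72 ± 0.18, adjusted p = 0.000202): RPL31A was at -0.61 and -1.25 and RPL31B at 0.98 and 0.60. RPL4 differed by -0.90 ± 0.26, RPL17 by 0.78 ± 0.37 and RPL6 by -0.47 ± 0.09. The count was 3 without replicate 1 and 2 without replicate 2.

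The pair RPL31 was the one whose difference was called between groups, 1 of 23 pairs tested between the treatments in snf1. The share over all pairs of the table is not given here. Not every pair could be tested: between the genotypes at alkaline pH, RPL22 differed by -0.71 ± 0.21 (SE) and RPL23 by -0.80 ± 0.18, with too few arrays for a test. In snf1 the A minus B difference was 1.37 ± 0.27 (SE) lower at low glucose than at alkaline pH (adjusted p = 0.0144), where it had been -1.01, -0.47, 0.08 and 0.00 with replicates 1 and 2 apart from 3 and 4. The call was lost without low glucose replicate 2, with arrays scaled to one spread and with consecutive arrays averaged. Between the genotypes at low glucose the RPL31 difference was -1.18 ± 0.32 lower in snf1 and missed the threshold (adjusted p = 0.067). No pair was called between the genotypes by limma, with 0 of 26 pairs at an unadjusted p under 0.05 at alkaline pH and 5 of 27 at low glucose, nor between the treatments in the wild type, with 3 of 29.

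**Figure D4:**
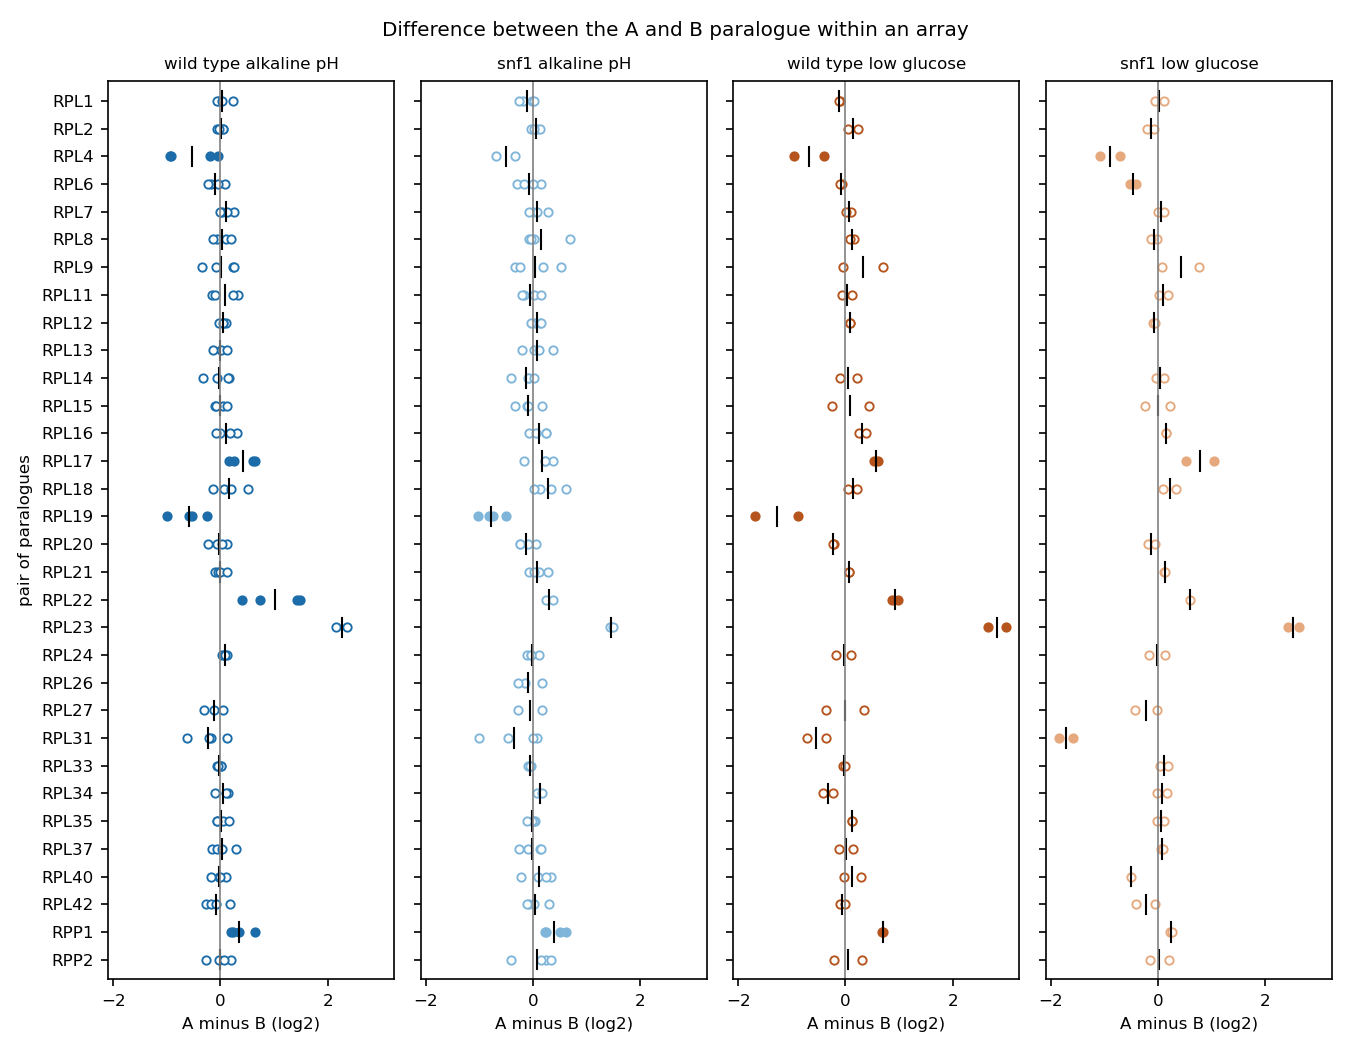
Difference A minus B in log2 ratio for the 32 pairs (rows) on each array (circles) in the 4 groups, with the mean as a black tick and filled circles where the difference was called. Most pairs lie at 0, RPL23 lies to the right in all 4 groups and RPL19 to the left in the 3 groups where both genes have values, and RPL31 moves to the left in snf1 at low glucose.

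The uneven fall of the wild type at low glucose followed the number in the gene name, which runs broadly from larger to smaller proteins. This description was chosen after the values were seen and carries no test, since the points share arrays and paralogues share a number. Genes numbered 1 to 21 had a median of -0.90 with 33 of 38 lower, and genes numbered 22 to 43 a median of -0.37 with 15 of 31 lower, beside 31.5% of all genes. Number and mean correlated across the 69 RPL genes with Pearson's r = 0.50 and Spearman's rho = 0.63. The pattern was present on each array, with r = 0.49 and 0.48.

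The other groups showed no such slope. Pearson's r was -0.02 (69 genes) and 0.05 (66 genes) in wild type and snf1 at alkaline pH, and -0.10 (65 genes) in snf1 at low glucose, where the medians were -0.71 for the lower and -0.86 for the higher numbers. The difference of the genotypes at low glucose ran with the number at r = -0.70: 3 of 37 genes numbered up to 21 were higher in snf1 and none was lower, and 7 of 28 numbered from 22 were lower and none was higher. Of all genes 27.6% were higher in snf1 and 13% lower, so the 3 of 37 lie under the background. The low glucose minus alkaline pH difference of the wild type ran at r = 0.76, with 18 of the 30 higher numbers and 3 of the 38 lower numbers called higher, beside 24.3% of all genes. Both differences contain the wild type low glucose arrays on which the slope was seen, so they are not separate findings. The 40S proteins, with numbers up to 31, had r = 0.54 in wild type at low glucose and 0.08, 0.19 and 0.21 in wild type and snf1 at alkaline pH and snf1 at low glucose, so the slope is not particular to the 60S genes.

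**Figure D5:**
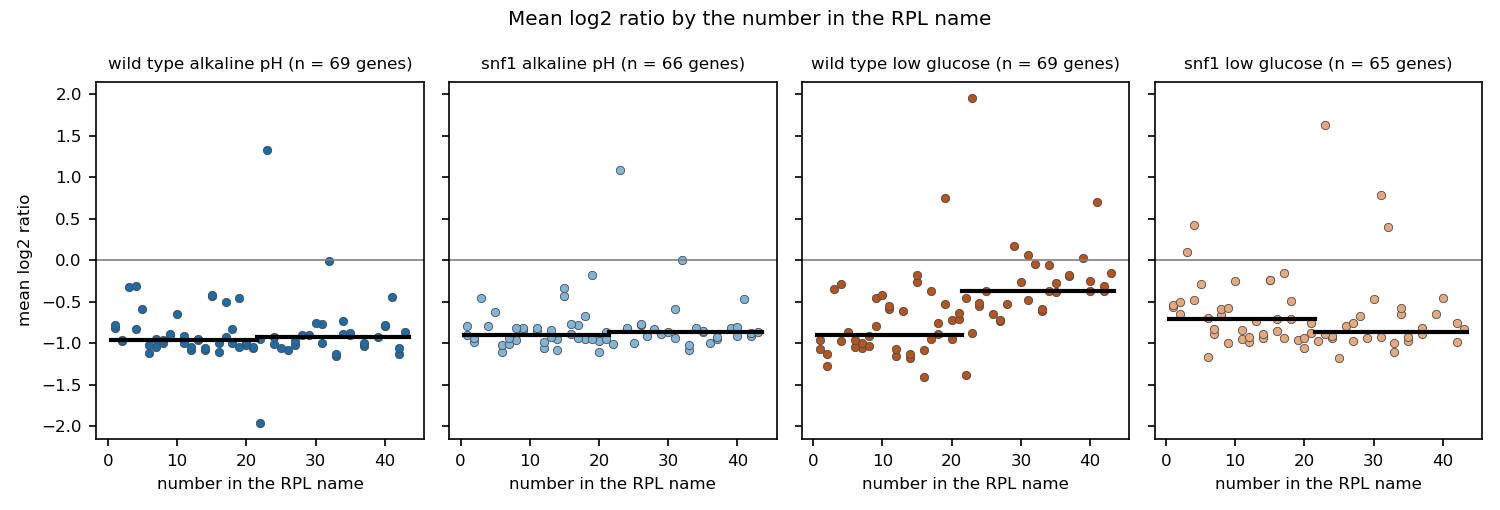
Mean log2 ratio of each RPL gene against the number in its name in the 4 groups, with black bars at the medians of the numbers up to 21 and from 22. In wild type at low glucose the bars lie at -0.90 and -0.37, and in snf1 at low glucose at -0.71 and -0.86.

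Of the listed 60S assembly factors, the nucleolar and nuclear proteins that build the subunit, 56 of 61 and 55 of 61 were lower in wild type and snf1 at alkaline pH and 55 of 60 and 50 of 57 at low glucose, beside 30%, 26.2%, 31.5% and 16.9% of all genes. One was higher, in snf1 at alkaline pH. The list had medians of -1.34 and -1.32 in wild type and snf1 at alkaline pH and -1.73 and -1.13 at low glucose, each below the median of the 60S genes. Of 55 assembly factors, 19 were higher in snf1 than in the wild type at low glucose and none was lower, beside the 27.6% of all genes that were higher. The mitochondrial large subunit proteins had medians of 0.17, -0.02, 0.77 and 0.22, and the 40S proteins -0.94, -0.92, -0.80 and -0.84.

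Dedicated chaperones bind some 60S proteins from their synthesis until assembly, and of the 5 listed, 5, 5, 4 and 4 were lower in the 4 groups, in the same order, beside 30%, 26.2%, 31.5% and 16.9% of all genes. SYO1, whose product carries Rpl5 and Rpl11 into the nucleus, fell by 1.92 ± 0.37 and 1.77 ± 0.29 in wild type and snf1 at alkaline pH, and by 2.65 ± 0.01 and 1.23 ± 0.09 at low glucose. SQT1, the chaperone of Rpl10, fell by 0.89 and 0.84 at alkaline pH and by 2.12 and 0.87 at low glucose. RRB1 of Rpl3 fell by 1.22, 1.30, 1.60 and 1.08, and BCP1 of Rpl23 fell by 0.46, 0.68, 0.75 and 0.78. ACL4 of Rpl4 fell by 0.45 in each genotype at alkaline pH, and was at -0.28 and -0.04 at low glucose without a call.

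Among the listed regulators of ribosomal protein genes, 3 of 7 tested were lower and 2 higher in the wild type at alkaline pH, and 1 of 6 lower and 1 higher in snf1. At low glucose 5 of 9 were lower and 1 higher in the wild type, and 3 of 8 lower and 2 higher in snf1. The shares of all genes were 30%, 26.2%, 31.5% and 16.9% lower and 25.6%, 21.7%, 33.7% and 28.9% higher. The counts of higher regulators, and of lower ones at alkaline pH, thus lie near or under the background. IFH1, the coactivator at their promoters, fell by 1.38 ± 0.40 in the wild type at alkaline pH and by 1.93 ± 0.34 and 0.66 ± 0.31 in wild type and snf1 at low glucose. FHL1, the factor that Ifh1 binds, fell by 0.51, 1.19 and 0.52 in the same groups, and was at -0.25 in snf1 at alkaline pH without a call. SCH9, a kinase downstream of TORC1, fell by 0.40 and 0.29 at alkaline pH and by 2.27 ± 0.18 in the wild type at low glucose, and was at -0.22 ± 0.22 in snf1. SFP1, an activator of these genes, fell by 1.03 ± 0.18 in the wild type at low glucose and was not called in the other groups. DOT6, a repressor of ribosome biogenesis genes, rose in all 4 groups, by 1.20, 0.92, 1.17 and 2.00. RAP1 fell by 1.55 and 0.78 in wild type and snf1 at low glucose and was not tested at alkaline pH. STB3 rose by 0.41 in the wild type at alkaline pH and by 0.72 in snf1 at low glucose. It was not called in snf1 at alkaline pH. TOD6 (-0.64) and CRF1 (0.02) were tested in the wild type at low glucose alone and not called. HMO1 was not called in any group.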

How the data were processed

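Transcript ratios were measured on 12 two-colour arrays. Per the labels' protocols, 8 µg of total RNA were labelled by an indirect dUTP method primed with oligo(dT), and the authors dropped spots that were too small or too dim. The deposited values are 1 log ratio per gene and array, read here as log2; their base, direction and normalization are not given in the sources used here. Wild type alkaline pH replicates 3 and 4 carry 2 decimals only. Over the 36 pairs of arrays with opposite dyes the lowest Pearson coefficient across genes was 0.54, so the ratios run in one direction.

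No further normalization was applied. The model, fitted to the log2 ratios of the whole table by lmFit and eBayes of limma 3.58.1 under R 4.3.3, had 4 group means and a dye term. Tests were two-sided with Benjamini-Hochberg adjustment, and the steps were checked on simulated data. Testing needed values on 3 of the 4 alkaline pH arrays, or on both low glucose arrays, in every group compared. The 4 groups share a single estimate of the spread of a gene, so the low glucose groups lean on the alkaline pH arrays. The prior, which draws on all genes, had 4.56 degrees of freedom. Paralogues were compared as A minus B within an array, adjusted over all A and B pairs of the table tested.

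Systematic names were matched to the R64 annotation for 5639 of all 6212 rows, with or without a value. A value on at least 1 array was present for 5857 genes. Probe sequences were not examined, and precision is limited by the number of arrays, which give no counts.

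Named genes are, in each comparison, the 5 lowest and 5 highest members, members called against the rest, up to 8 called between groups in each direction, pairs called, and examples of each role. The members and lists were chosen with earlier results of these data known. Alternatives were no dye term, scaling to one spread, centring, stricter and looser filters, each experiment fitted alone, a replicate block, consecutive arrays averaged or as a random block, and leaving out each array.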

Additional observations from a re-analysis of the deposited data

Results flagged for a closer look

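Single arrays that lay far from the other 3 of their group were looked for in 141 groups of 4 values of the members and in 53 of the pairs, by Dixon's criterion. This marked 7 member groups and 1 pair, and chance alone marks about 1 group in 20. In wild type at alkaline pH replicate 1 was the distant array for RPL23A (1.633, with the others between 1.203 and 1.26), RPL26B (-1.417, the others from -1 to -0.932) and RPL10 (-1.126, the others from -0.52 to -0.416). The same array had the lowest median of the 60S genes, -1.26. In snf1 at alkaline pH the distant values were those of RPP0 on replicate 1 (-0.256, the others from -0.77 to -0.737), RPL14A on replicate 2 (-1.443), RPL4A on replicate 3 (-0.931) and RPL36A on replicate 3 (-1.25). For the pairs it was RPL8A minus RPL8B on replicate 4 (0.698, the others from -0.067 to 0.02).

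At low glucose the genotypes differed by limma's test of the difference for 10 of 70 members, where 13% of all genes were lower and 27.6% higher in snf1. The differences, snf1 minus wild type, were -1.1 for RPL29, -0.806 for RPL25, -0.7025 for RPL37B, -0.684 for RPL43A, -0.671 for RPL39, -0.623 for RPL42A and -0.593 for RPL34B. In the other direction they were 0.763 for RPL2B, 0.57 for RPL5 and 0.5535 for RPL16B. Both arrays of one genotype lay above both of the other for each of these genes. The genes were picked by a call on the same arrays, so this adds no support. The share of all genes with such a gap was not counted.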

How the results depend on the processing

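At alkaline pH the counts of lower members held under each alternative: they ran from 70 to 73 in the wild type and from 67 to 73 in snf1 over the arrays left out, and the median in snf1 was -1.033 with arrays scaled to one spread. At low glucose less held. With arrays scaled to one spread the wild type had 24 lower members (median -0.3495), the genotype difference 4 called members (median -0.3582), the wild type 3 called pairs, and RPL16B a genotype difference of -0.005837, the one called value that changed sign. With each experiment fitted alone the genotype difference called 18 members and the wild type 11 pairs. With consecutive arrays averaged snf1 had 34 lower members, the genotype difference 0, and the low glucose minus alkaline pH difference 3 in the wild type and 0 in snf1. With the consecutive pair as a random block these last 3 counts were 4, 12 and 1. Centring each array left 12 and 1 called between the treatments in wild type and snf1. Over the single arrays left out, the count of lower members at low glucose ran from 31 to 51 in the wild type and from 35 to 57 in snf1. The genotype difference ran from 2 to 15 members, and the treatment difference from 5 to 28 in the wild type and from 0 to 6 in snf1. The called pairs ran from 3 to 5 and from 2 to 4 in wild type and snf1 at alkaline pH, and from 3 to 7 and from 2 to 6 at low glucose. Groups of 2 arrays limit the precision, and where 1 array was left it was assumed to vary like the other groups. The genotype difference at alkaline pH called 0 members under each alternative run. Of 1668 values of 80 named results, 1527 stayed on their side of the threshold, 135 lost their call, 5 gained one and 1 called value changed sign. The 1527 include uncalled values near 0 whose sign changed, such as RPL32 in wild type at alkaline pH, which ran from -0.05225 to 0.02975. The cause of these shifts was not tested. A replicate block, with the replicate number as a term, gave 71 and 68 lower members at alkaline pH, 43 and 53 at low glucose, 14 genotype differences at low glucose, 16 and 1 differences between the treatments, and 3 called pairs in wild type at low glucose. Whether the numbers pair the samples could not be told. Same-numbered arrays of the genotypes deviated from their group means with correlations of -0.15, -0.40, -0.16 and 0.04 at alkaline pH, and of 0.27 and 0.27 at low glucose. With 2 arrays in a group the deviations mirror each other, so the low glucose values are not separate. The deviations still hold the dye effect. The same number means opposite dyes for replicates 1 and 2 at alkaline pH, and the same dye for replicates 3 and 4 and at low glucose.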

Other observations

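The 3 members with systematic names that begin with YBL can be set beside the genes next to each in the annotation, of which 4 had values. RPL23A (YBL087C) had means of 1.33, 1.09, 1.96 and 1.63 in wild type and snf1 at alkaline pH and wild type and snf1 at low glucose, and TEL1 (YBL088C), which encodes a DNA damage checkpoint kinase, had -1.16, -1.17, -1.14 and -0.96. RPL32 (YBL092W) had -0.01, 0.00, -0.05 and 0.40, and ROX3 (YBL093C), which encodes a Mediator subunit, had -0.75, -0.77 (2 arrays), -0.42 and -0.72. RPL19B (YBL027W) had -0.46, -0.18 and 0.75 in the first 3 groups, and YBL028C had -0.91, -0.80, -0.43 and -0.74 in the 4 groups. TEL1, ROX3 and YBL028C are each the gene before the member in the annotation. LSM2 (YBL026W), the gene after RPL19B, had -0.24, -0.13 (3 arrays) and 0.09 in the first 3 groups and was not called. The medians of the 60S genes were -0.95, -0.87, -0.56 and -0.76. This was seen after the values were known, the probe sequences were not examined, and whether rows and probes match was not tested.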
